A study of Mus musculus with 9 samples.

Results

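Type I interferons make a cell switch on a set of antiviral genes. Here 36 such genes were followed in blood monocytes of mice that carry the autoimmunity-promoting Yaa mutation. They were chosen by name for this description, with earlier results of these data known. All 36 were found among the 23234 gene symbols of the deposited tables. The values are FPKM, fragments scaled to transcript length and to the mapped fragments of the library. Of the 36, 35 averaged 1 FPKM or more across all 9 libraries, which placed them among the 10436 genes tested. Ifi44 fell outside, with a mean of 0.422 FPKM, and Mx2, with a mean of 1.65 FPKM, was the member just inside. Each member's level was compared between Gr+CD11b+ and Gr-CD11b+ monocytes, between the genotypes, and inside the 1 pair of libraries that share both subset and genotype.

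The 9 libraries came from CD11b+ monocytes sorted from peripheral blood of C57BL/6 mice aged 8 months. Gr stands for Gr-1, the epitope of Ly6C and Ly6G, which the gate selects on. All mice carried Yaa, a Y chromosome with a translocated X segment that includes Tlr7, so no group lacks it. Of the 4 Gr+CD11b+ libraries, 2 were labelled Fcgr2-/-.Yaa (null, replicates 1 and 2), 1 CEBPaCre;Fcgr2 fl/fl.Yaa and 1 CD19Cre;Fcgr2 fl/fl.Yaa. The 5 Gr-CD11b+ libraries were 1 each of Fcgr2-/-.Yaa, CEBPaCre;Fcgr2 fl/fl.Yaa, CD19Cre;Fcgr2 fl/fl.Yaa, CD11cCre;Fcgr2 fl/fl.Yaa and Fcgr2 fl/fl.Yaa without Cre (floxed). Fcgr2, also called CD32 and listed as Fcgr2b, encodes the inhibitory receptor for IgG. The Cre drivers act through the promoters named in the labels: the CD19Cre driver acts in B cells, that of CEBPa in myeloid progenitors and their progeny, and that of CD11c mainly in dendritic cells and in part of the monocytes. Whether any of these libraries share an animal is not in the labels. The p-values here reflect the spread from library to library. Apart from the null Gr+CD11b+ pair, libraries of the same subset differ in labelled genotype. This spread therefore mixes genotype with any difference between animals and any technical difference.

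Type I interferons bind a receptor of Ifnar1 and Ifnar2 and act through the kinases Jak1 and Tyk2. A complex that includes Stat2 and Irf9 then binds the interferon-stimulated response element (ISRE) in the promoters of response genes. Irf7 is itself a response gene that drives interferon production after Tlr7 or Tlr9 signalling, and a raised level of this gene set in blood cells is a known feature of lupus. The products are known to block viruses at several steps. The OAS proteins make the second messenger that activates RNase L, and the IFIT proteins bind viral RNA. The Mx GTPases can trap nucleocapsids, and Isg15 is a ubiquitin-like modifier that Usp18 removes. These are general roles, and whether each protein is functional in the mice used here was not examined.

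The letters that this complex reads can be seen in the promoters of several members. RefSeq promoter windows of the GRCm38.p6 build, from 250 bases before to 50 bases after each gene's start, were matched by symbol to 27 of the 36 members. The ISRE core GAAANNGAAA (TTTCNNTTTC on the other strand), where N is any base and matches may overlap, was present in 15 of the 27, or 55.6%. It was present in 3.99% of the 27025 genes with a window. The letters were not particular to the members. Among related genes with a window, 8 of 9 interferon gamma induced GTPases and chemokines (88.9%) and 10 of 18 interferon ligands (55.6%) had them. So did 30.9% of other type I interferon induced genes and 31.2% of immunoproteasome and class I presentation genes. Receptors and transcription factors, sensors and negative regulators had them in 5.56% to 8.33%. The 160 bases before the start of 7 members with a match and of Oasl2, the member with the largest subset difference and no match, are shown 5′ to 3′ along the gene, with the matched letters in capitals.
Ifit1 (chr19:34640729-34640888, plus strand): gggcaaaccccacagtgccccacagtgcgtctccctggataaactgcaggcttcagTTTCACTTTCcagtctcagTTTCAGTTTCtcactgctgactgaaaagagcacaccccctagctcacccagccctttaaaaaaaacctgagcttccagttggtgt
Ifit3 (chr19:34583369-34583528, plus strand): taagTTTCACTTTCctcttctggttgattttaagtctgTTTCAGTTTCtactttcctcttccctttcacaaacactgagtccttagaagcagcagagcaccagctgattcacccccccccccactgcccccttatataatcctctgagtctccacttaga
Isg15 (chr4:156200819-156200978, minus strand): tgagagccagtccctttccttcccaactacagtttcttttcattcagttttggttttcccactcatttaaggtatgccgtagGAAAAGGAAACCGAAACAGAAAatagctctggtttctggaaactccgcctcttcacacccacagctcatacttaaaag
Oas1a (chr5:120907526-120907685, minus strand): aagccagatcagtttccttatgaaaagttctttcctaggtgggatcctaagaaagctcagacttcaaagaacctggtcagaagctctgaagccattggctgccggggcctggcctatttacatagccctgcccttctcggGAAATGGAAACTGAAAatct
Oas1g (chr5:120887614-120887773, minus strand): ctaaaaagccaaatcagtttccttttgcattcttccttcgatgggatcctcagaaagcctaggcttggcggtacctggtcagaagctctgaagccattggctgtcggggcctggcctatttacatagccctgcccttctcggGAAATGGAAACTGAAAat
Oas3 (chr5:120777660-120777819, minus strand): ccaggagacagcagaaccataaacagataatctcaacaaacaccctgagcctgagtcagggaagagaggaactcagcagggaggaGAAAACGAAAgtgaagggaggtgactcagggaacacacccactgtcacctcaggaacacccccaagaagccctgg
Gbp3 (chr3:142559884-142560043, plus strand): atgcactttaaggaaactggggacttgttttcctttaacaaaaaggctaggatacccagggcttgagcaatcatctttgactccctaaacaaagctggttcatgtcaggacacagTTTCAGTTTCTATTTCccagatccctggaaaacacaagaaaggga
Oasl2 (chr5:114896774-114896933, plus strand): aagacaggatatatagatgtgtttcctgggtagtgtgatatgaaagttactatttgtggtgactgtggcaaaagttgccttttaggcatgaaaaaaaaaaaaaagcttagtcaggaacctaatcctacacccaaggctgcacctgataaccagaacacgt
In Isg15, Oas1a, Oas1g and Gbp3 the capitals join matches that overlap. Oas1a and Oas1g, neighbours on chromosome 5, carry the same capitals close to the start, at 20 and 18 bases before it. In Ifit1 and Ifit3, the outer match lies 104 and 156 bases before the start. A match is a description of letters, and no match says only that these letters are not in this window. Of the members that were both tested and matched to a window, the 15 with the letters had a median Gr+CD11b+ minus Gr-CD11b+ log2 difference of 0.84, and the 11 without them had 0.89.

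The libraries also differed outside the members, in part along the sorted subset or the labelled genotype. Fcgr2b held 74.9 to 200.7 FPKM, and the 2 highest values were in libraries labelled null Gr+CD11b+ replicate 1 and CD19Cre Gr+CD11b+, so the targeted gene's level did not separate deleted from intact libraries, and every genotype below is only the one on the label. Reads in number are not given by FPKM. A relative depth was taken as the inverse of the commonest ratio of a library's low FPKM values to those of the floxed library. It ran from 0.702 in null Gr+CD11b+ replicate 1 to 2.66 in CD19Cre Gr-CD11b+, with the floxed library at 1. It is a rough guide only, since CD19Cre Gr-CD11b+ had 8827 genes listed at 0 and the floxed library 5246. Both CD19Cre libraries stood apart, with 1.97% and 2.26% of their FPKM in ribosomal protein genes against 3.67% to 7.72% in the other 7. Monocyte genes were present throughout: Csf1r, Lyz2, Itgam and Cd68 were detected in every library. All 9 classical monocyte markers (Ly6c2 and Ccr2 among them) were called higher in Gr+CD11b+, and all 12 nonclassical markers in the files (such as Nr4a1 and Itgal) were called higher in Gr-CD11b+ libraries. Of 12 tested neutrophil markers, 9 were called higher in Gr+CD11b+ libraries, where the 13 in the files summed to 746 to 2390 FPKM against 71.8 to 156 FPKM. Of 9 NK cell markers, 8 were called higher in Gr-CD11b+ libraries (sum of 10 markers 24.5 to 465 against 1.24 to 4.47 FPKM), and Ncr1 was listed at 0 in every Gr+CD11b+ library. These cells' part in the results below was not tested, and in bulk samples fewer cells of a type and less RNA per cell cannot be told apart.

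The members were higher on average in Gr+CD11b+ than in Gr-CD11b+ libraries, and the library labelled CEBPaCre Gr+CD11b+ led. The mean log2(FPKM + 1) over the 35 members was 3.74 in null replicate 1, 4.58 in null replicate 2, 5.64 in CEBPaCre and 4.65 in CD19Cre among Gr+CD11b+ libraries. Among Gr-CD11b+ libraries it was 3.01 in null, 4.24 in CEBPaCre, 3.77 in CD19Cre, 4.12 in CD11cCre and 3.78 in the floxed library. The subset means were 4.65 ± 0.78 (SD, n = 4) and 3.78 ± 0.48 (SD, n = 5). The 2 ranges overlapped, since null Gr+CD11b+ replicate 1 lay below 4 of the 5 Gr-CD11b+ libraries. Within each genotype that had both subsets the Gr+CD11b+ library was the higher, null replicate 1 included.

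**Figure D1:**
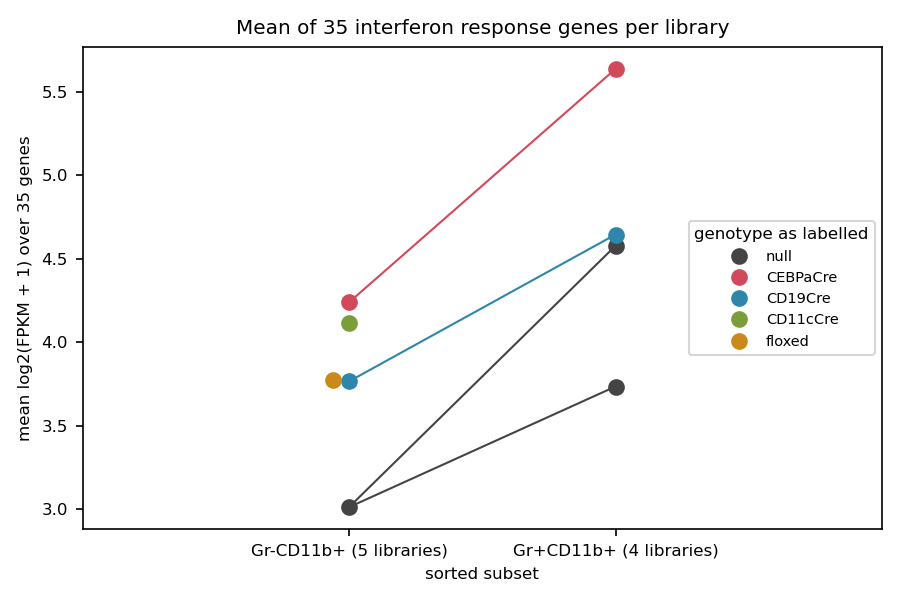
Mean log2(FPKM + 1) of the 35 interferon response genes (vertical axis) in each library, by sorted subset (horizontal axis). Points are libraries coloured by labelled genotype, and lines join libraries of 1 genotype. Every line rises toward Gr+CD11b+, from 3.01 to 3.74 and 4.58 in null, from 4.24 to 5.64 in CEBPaCre and from 3.77 to 4.65 in CD19Cre.

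The range of a member across the 9 libraries was wide. The median ratio of the highest to the lowest library, on the FPKM + 1 scale, was 6.16 over the 35 members and 2.46 over all genes tested. Oasl2 had the widest range, with a ratio of 31.2, followed by Usp18 with 22.1 and Ifit3 with 17.6. The CEBPaCre Gr+CD11b+ library was the highest of all 9 for 28 of the 35 members (13% of all genes tested). The null Gr-CD11b+ library was the lowest of all 9 for 26 of the 35 (10.7% of all genes). The order of the members by level did not follow their range: Ifitm3, a membrane protein that blocks virus entry, had the highest mean at 2355 FPKM and a ratio of only 3.45.

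**Figure D2:**
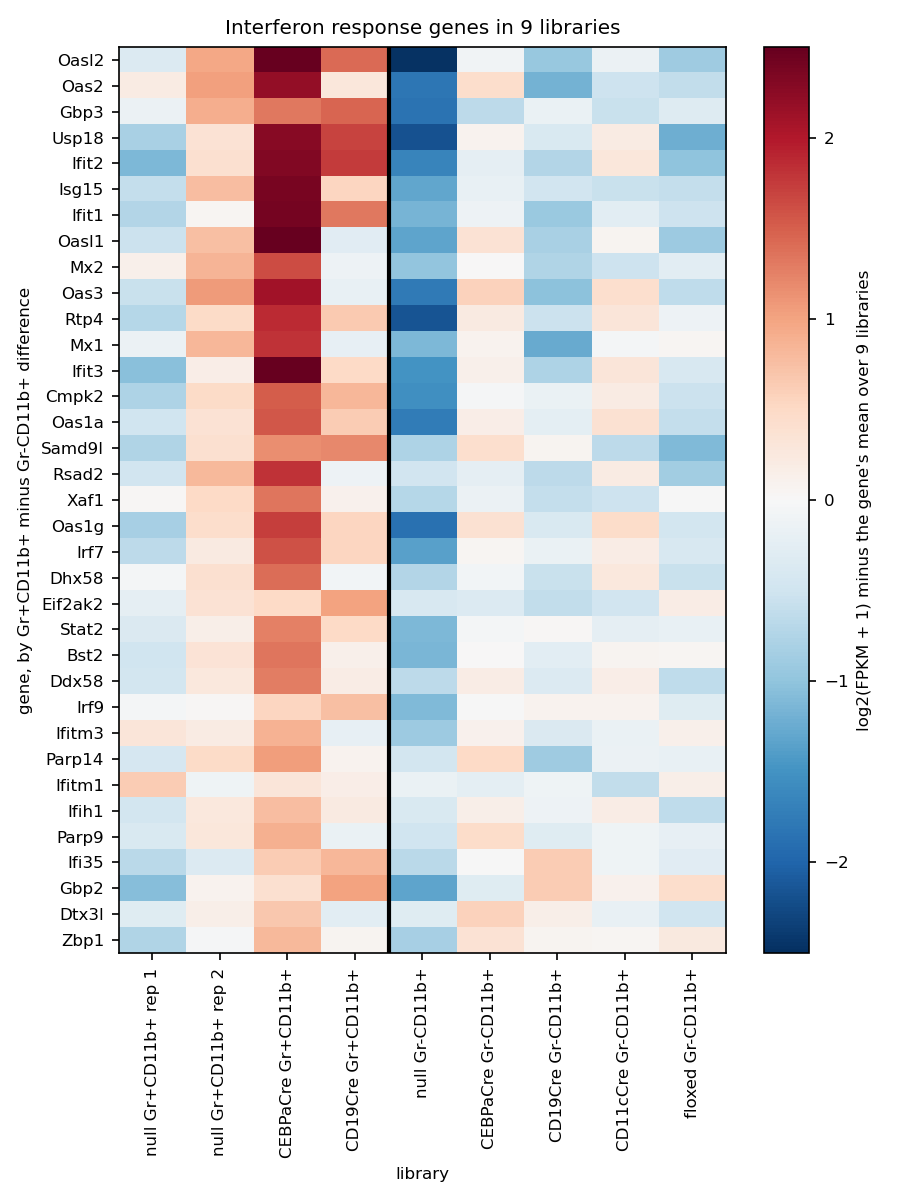
Level of each of the 35 members (rows) in each of the 9 libraries (columns), as log2(FPKM + 1) minus the gene's mean over the libraries; red is above and blue below that mean. Rows are ordered by the subset difference, and the line separates the 4 Gr+CD11b+ from the 5 Gr-CD11b+ libraries; the CEBPaCre Gr+CD11b+ column is highest for 28 members and the null Gr-CD11b+ column lowest for 26.

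The subset comparison asked which members differ between Gr+CD11b+ and Gr-CD11b+ monocytes. Oasl2, Oas2 and Gbp3 were called higher in Gr+CD11b+ (3 of 35, at an adjusted p at or under 0.05 by limma over all genes), and no member was called higher in Gr-CD11b+. In all genes tested, 8.84% were called higher in Gr+CD11b+ and 5.95% in Gr-CD11b+, so the members' share of calls lay near the background. All 35 members nevertheless had a difference above 0 (57.7% of all genes), and 12 had an unadjusted p under 0.05 with the higher level in Gr+CD11b+ (16.6% of all genes). The median member difference was 0.89 on the log2(FPKM + 1) scale, a fold of 1.86, against 0.09 over all genes. In Xaf1 and Gbp3 alone, every Gr+CD11b+ library lay above every Gr-CD11b+ library, 2 of 35 against 10.2% of all genes.

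With genotype as a block, which compares subsets inside null, CEBPaCre and CD19Cre, 23 of the 35 members were called higher in Gr+CD11b+ (16% of all genes) and none in Gr-CD11b+ (9.97% of all genes). The median member difference was then 1.05, against 0.07 over all genes. The block left 3 residual degrees of freedom among libraries. They come from the null Gr+CD11b+ pair and from how the subset difference varied between genotypes. The 12 members that were not called with the block were Rsad2, Ifih1, Ddx58, Ifitm1, Ifitm3, Ifi35, Zbp1, Parp9, Parp14, Dtx3l, Gbp2 and Samd9l. The number called rested on a few libraries. With the block kept, 5 members were called without the CEBPaCre Gr+CD11b+ library, 6 without the CEBPaCre Gr-CD11b+ library and 6 without the null Gr-CD11b+ library, when 6.96%, 7.14% and 6.13% of all genes were called higher. There were 14 without CD19Cre Gr+CD11b+ and 15 without CD19Cre Gr-CD11b+, when 11.6% and 11.8% of all genes were. Oas2, Oasl2, Usp18 and Gbp3 were the 4 members called with the block in all 12 alternatives to it that were run. These alternatives are not 12 separate checks. Leaving out the CD11cCre or the floxed library, each alone in its block, keeps the estimates as they were (median 1.05). Leaving out either CEBPaCre library gives the same estimates (median 0.96), and so does leaving out either CD19Cre library (median 1.23). Without the block, the count was 0 without CEBPaCre Gr+CD11b+ (6.02% of all genes) and 10 without null Gr+CD11b+ replicate 1 (6.82% of all genes). It was 1 (Gbp3) without null Gr+CD11b+ replicate 2, without CD19Cre Gr-CD11b+ or without null Gr-CD11b+, when 7.74%, 9.73% and 6.61% of all genes were called higher. Without both CD19Cre libraries, Mx2 and Gbp3 were called (10.4% of all genes), and without the CD11cCre library, Oasl2 and Gbp3 (7.47% of all genes).

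**Figure D3:**
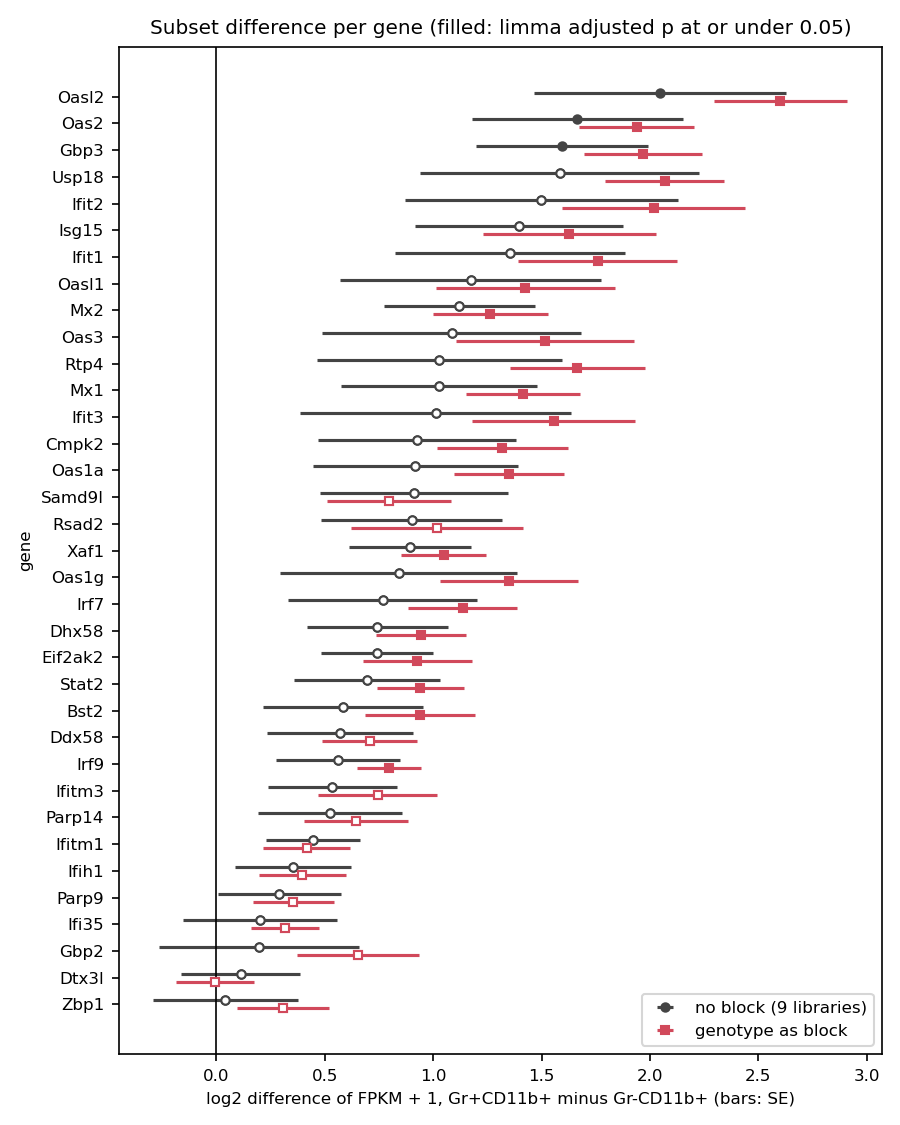
Difference of each member between Gr+CD11b+ and Gr-CD11b+ libraries on the log2(FPKM + 1) scale (horizontal axis), without a block (circles) and with genotype as a block (squares); bars are standard errors and filled symbols have a limma adjusted p at or under 0.05. The filled circles are Oasl2, Oas2 and Gbp3; 23 squares are filled, and Dtx3l and Zbp1 sit nearest 0.

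In the paragraphs on single members, FPKM values are given in a fixed order. For Gr+CD11b+ this is null replicate 1, null replicate 2, CEBPaCre and CD19Cre, and for Gr-CD11b+ it is null, CEBPaCre, CD19Cre, CD11cCre and floxed. Log2 differences are Gr+CD11b+ minus Gr-CD11b+ ± SE on the log2(FPKM + 1) scale, by limma with Benjamini-Hochberg adjustment over all genes.

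The OAS family, 6 genes on chromosome 5, held 2 of the 3 calls. Oasl2 stood at 14.7, 37.7, 110.4 and 52.0 FPKM in Gr+CD11b+ and at 2.57, 17.5, 9.27, 16.8 and 9.75 FPKM in Gr-CD11b+ libraries. The Gr+CD11b+ libraries lay above all Gr-CD11b+ libraries with 1 exception, null replicate 1, which lay inside the Gr-CD11b+ range. The difference of Oasl2, an OAS protein with ubiquitin-like domains, was 2.05 ± 0.58, a fold of 4.13 (adjusted p = 0.0364), and 2.60 ± 0.31 with the block (adjusted p = 0.00206). For Oas2, the Gr+CD11b+ libraries held 9.59, 17.7, 41.0 and 10.2 FPKM and the Gr-CD11b+ libraries 1.61, 11.4, 3.04, 5.40 and 5.03 FPKM. The CEBPaCre Gr-CD11b+ value of Oas2, which encodes an active synthetase, exceeded null replicate 1 and CD19Cre of Gr+CD11b+. Its difference was 1.67 ± 0.49 (fold 3.17, adjusted p = 0.0413) and 1.94 ± 0.27 with the block (adjusted p = 0.00345).

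Levels of Oas1a were 31.5, 58.4, 134 and 70.2 FPKM in Gr+CD11b+ and 12.7, 50.6, 38.1, 59.1 and 29.5 FPKM in Gr-CD11b+ libraries. Oas1g stood at 11.4, 29.0, 72.0 and 31.1 FPKM in Gr+CD11b+ and at 5.07, 27.6, 15.9, 29.5 and 15.1 FPKM in Gr-CD11b+ libraries. For Oas3, the Gr+CD11b+ libraries held 7.69, 25.5, 53.5 and 10.2 FPKM and the Gr-CD11b+ libraries 2.75, 17.9, 5.29, 16.2 and 7.24 FPKM. All 3 encode active synthetases, and in each the Gr-CD11b+ libraries labelled CEBPaCre and CD11cCre lay above the Gr+CD11b+ library null replicate 1. Without the block, none of them passed the test: the differences were 0.92 ± 0.47 (adjusted p = 0.246) for Oas1a, 0.84 ± 0.54 (adjusted p = 0.368) for Oas1g and 1.09 ± 0.60 (adjusted p = 0.279) for Oas3. With the block they were 1.35 ± 0.25, 1.35 ± 0.32 and 1.51 ± 0.41 (adjusted p = 0.0113, 0.0248 and 0.0384). Levels of Oasl1 were 1.08, 4.12, 18.4 and 1.48 FPKM in Gr+CD11b+ and 0.212, 2.88, 0.724, 2.18 and 0.620 FPKM in Gr-CD11b+ libraries. Oasl1, which restrains translation of Irf7, was near 1 FPKM in null replicate 1 and CD19Cre, and its high value came from CEBPaCre. Its difference was 1.17 ± 0.60 (adjusted p = 0.244), or 1.43 ± 0.41 with the block (adjusted p = 0.0474). Oas1a and Oas1g are similar in sequence, and how their shared reads were split is not known.

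The IFIT genes, a cluster on chromosome 19, had their high values in the CEBPaCre and CD19Cre Gr+CD11b+ libraries. Ifit1 stood at 1.99, 4.16, 25.0 and 11.4 FPKM in Gr+CD11b+ and at 1.22, 3.54, 1.62, 3.15 and 2.51 FPKM in Gr-CD11b+ libraries. For Ifit2, the Gr+CD11b+ libraries held 0.902, 4.44, 19.7 and 12.9 FPKM and the Gr-CD11b+ libraries 0.326, 2.55, 1.50, 4.02 and 1.06 FPKM. Levels of Ifit3 were 2.84, 7.84, 48.3 and 10.1 FPKM in Gr+CD11b+ and 1.80, 7.60, 3.67, 8.78 and 4.98 FPKM in Gr-CD11b+ libraries. For Ifit1 and Ifit2, all Gr+CD11b+ libraries but null replicate 1 stood above all Gr-CD11b+ libraries. In Ifit3, every Gr-CD11b+ library but null exceeded null replicate 1, and CD11cCre also exceeded null replicate 2. No IFIT gene passed the test without the block, at 1.35 ± 0.53, 1.50 ± 0.63 and 1.01 ± 0.63 (adjusted p = 0.124, 0.149 and 0.344). All 3 did with it, at 1.76 ± 0.37, 2.02 ± 0.42 and 1.56 ± 0.38 (adjusted p = 0.0163, 0.0163 and 0.0272).

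Isg15 and Usp18 act as a pair, the modifier and the protease that removes it and that also restrains the interferon receptor. Isg15 stood at 10.9, 29.8, 91.9 and 25.1 FPKM in Gr+CD11b+ and at 6.30, 14.8, 11.9, 11.2 and 10.9 FPKM in Gr-CD11b+ libraries. For Usp18, the Gr+CD11b+ libraries held 6.35, 15.4, 61.3 and 40.2 FPKM and the Gr-CD11b+ libraries 1.82, 12.5, 8.78, 13.8 and 4.48 FPKM. For Isg15, null replicate 2, CEBPaCre and CD19Cre lay above all Gr-CD11b+ libraries, and null replicate 1 lay at the floxed level. For Usp18, null replicate 1 lay below 3 of the Gr-CD11b+ libraries. The differences were 1.40 ± 0.48 for Isg15 and 1.58 ± 0.64 for Usp18 (adjusted p = 0.0794 and 0.138), and with the block 1.63 ± 0.40 and 2.07 ± 0.27 (adjusted p = 0.0283 and 0.00311).

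Among the GTPases, Gbp3 separated the subsets. Levels of Gbp3 were 10.6, 23.3, 31.0 and 34.4 FPKM in Gr+CD11b+ and 2.59, 7.24, 10.5, 7.73 and 9.27 FPKM in Gr-CD11b+ libraries. The lowest Gr+CD11b+ value was just above the highest Gr-CD11b+ value, that of CD19Cre. The difference of Gbp3, a guanylate-binding protein that acts on intracellular pathogens, was 1.59 ± 0.40, a fold of 3.02 (adjusted p = 0.0189), and 1.97 ± 0.27 with the block (adjusted p = 0.00357). Mx1 stood at 5.20, 11.3, 23.1 and 4.98 FPKM in Gr+CD11b+ and at 2.17, 6.35, 1.89, 5.70 and 6.13 FPKM in Gr-CD11b+ libraries. For Mx2, the Gr+CD11b+ libraries held 1.48, 3.06, 6.01 and 1.08 FPKM and the Gr-CD11b+ libraries 0.138, 1.29, 0.348, 0.581 and 0.896 FPKM. CD19Cre was the lowest Gr+CD11b+ library for both Mx genes, which differs from the order seen in Gbp3 and the IFIT genes. Mx1 differed by 1.03 ± 0.45 (adjusted p = 0.171) and Mx2 by 1.12 ± 0.35 (adjusted p = 0.0536), and with the block by 1.41 ± 0.26 and 1.26 ± 0.27 (adjusted p = 0.0109 and 0.0166). Gbp2, another guanylate-binding protein, ranged from 8.75 to 40.3 FPKM in Gr+CD11b+ and from 7.21 to 30.8 FPKM in Gr-CD11b+ libraries, with a difference of 0.20 ± 0.46 (adjusted p = 0.831).

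The 3 transcription factors among the members were called with the block only. Levels of Irf7 were 54.9, 101, 263 and 127 FPKM in Gr+CD11b+ and 33.2, 89.8, 76.6, 98.3 and 65.4 FPKM in Gr-CD11b+ libraries. Irf9 stood at 43.8, 45.9, 65.6 and 76.3 FPKM in Gr+CD11b+ and at 20.5, 44.6, 48.2, 47.9 and 36.5 FPKM in Gr-CD11b+ libraries. For Stat2, the Gr+CD11b+ libraries held 10.8, 15.6, 35.2 and 20.2 FPKM and the Gr-CD11b+ libraries 5.93, 13.6, 14.3, 11.9 and 12.2 FPKM. In Irf7 the CEBPaCre and CD19Cre Gr+CD11b+ libraries stood above all others; in Irf9 CD19Cre was the highest, and in Stat2 CEBPaCre. The null Gr-CD11b+ library was the lowest of the 9 for all 3 genes. The differences were 0.77 ± 0.44, 0.56 ± 0.29 and 0.70 ± 0.34 (adjusted p = 0.293, 0.24 and 0.213), and with the block 1.14 ± 0.25, 0.80 ± 0.15 and 0.94 ± 0.20 (adjusted p = 0.02, 0.0105 and 0.0173).

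Of the 5 members that sense viral nucleic acid, Dhx58 and Eif2ak2 were called with the block only. Levels of Dhx58 were 16.7, 23.3, 47.3 and 16.5 FPKM in Gr+CD11b+ and 10.1, 16.5, 11.6, 21.3 and 11.5 FPKM in Gr-CD11b+ libraries. Eif2ak2 stood at 6.00, 9.47, 10.4 and 15.3 FPKM in Gr+CD11b+ and at 5.15, 5.40, 4.32, 4.85 and 8.24 FPKM in Gr-CD11b+ libraries. Dhx58 encodes LGP2, a helper of the RIG-I-like receptors, and CEBPaCre Gr+CD11b+ was its 1 library far above the rest. Eif2ak2 encodes PKR, a kinase that stops translation when it binds double-stranded RNA, and CD19Cre Gr+CD11b+ was its highest and CD19Cre Gr-CD11b+ its lowest library. The differences were 0.74 ± 0.33 and 0.74 ± 0.26 (adjusted p = 0.169 and 0.0815), and with the block 0.94 ± 0.21 and 0.93 ± 0.25 (adjusted p = 0.0199 and 0.039). For Zbp1, the Gr+CD11b+ libraries held 72.5, 121, 216 and 129 FPKM and the Gr-CD11b+ libraries 69.1, 158, 129, 128 and 146 FPKM. The subsets overlapped widely in Zbp1, a sensor of Z-form nucleic acid, and the difference was 0.043 ± 0.33 (adjusted p = 0.955), or 0.31 ± 0.21 with the block (adjusted p = 0.329); its sign turned under median ratio scaling, at -0.058. Ddx58, which encodes RIG-I, ranged from 5.72 to 21.6 FPKM in Gr+CD11b+ and from 4.91 to 9.62 FPKM in Gr-CD11b+ libraries. Ifih1, which encodes MDA5, ranged from 5.01 to 13.1 FPKM and from 4.33 to 8.39 FPKM in the same order. Neither passed the test, at 0.57 ± 0.33 and 0.36 ± 0.27 (adjusted p = 0.313 and 0.443), nor with the block, at 0.71 ± 0.22 and 0.40 ± 0.20 (adjusted p = 0.0565 and 0.195).

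Of the 3 membrane proteins, Ifitm3 was the most abundant. Levels of Ifitm3 were 2772, 2582, 4109 and 1940.1 FPKM in Gr+CD11b+ and 1191, 2417, 1734, 1997 and 2451 FPKM in Gr-CD11b+ libraries. Ifitm1 stood at 123, 73.7, 98.1 and 89.2 FPKM in Gr+CD11b+ and at 71.1, 66.8, 73.3, 51.5 and 87.6 FPKM in Gr-CD11b+ libraries. For Bst2, the Gr+CD11b+ libraries held 41.1, 73.4, 148 and 63.4 FPKM and the Gr-CD11b+ libraries 25.9, 58.1, 48.0, 60.6 and 60.0 FPKM. Ifitm1 and Ifitm3 restrict virus entry and Bst2, or tetherin, holds budding virions at the cell surface. In Ifitm1 the highest library was null Gr+CD11b+ replicate 1, the only member led by that library. Ifitm3 and Bst2 were highest in CEBPaCre Gr+CD11b+ and lowest in null Gr-CD11b+. None passed the test without the block, at 0.54 ± 0.30, 0.45 ± 0.22 and 0.58 ± 0.37 (adjusted p = 0.283, 0.22 and 0.352). With it, Bst2 did, at 0.94 ± 0.26 (adjusted p = 0.0388), and Ifitm3 and Ifitm1 had 0.74 ± 0.28 and 0.42 ± 0.20 (adjusted p = 0.0935 and 0.172).

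Of the other members, Xaf1, Rtp4 and Cmpk2 were called with the block only. Levels of Xaf1 were 10.9, 15.7, 28.8 and 11.7 FPKM in Gr+CD11b+ and 6.17, 9.54, 6.82, 7.23 and 10.6 FPKM in Gr-CD11b+ libraries. Rtp4 stood at 14.5, 34.5, 91.3 and 38.8 FPKM in Gr+CD11b+ and at 4.68, 28.6, 16.6, 30.3 and 22.3 FPKM in Gr-CD11b+ libraries. For Cmpk2, the Gr+CD11b+ libraries held 7.61, 19.4, 40.7 and 25.0 FPKM and the Gr-CD11b+ libraries 4.06, 13.3, 12.03, 15.9 and 9.04 FPKM. In Xaf1, which promotes apoptosis, the subsets did not overlap, null replicate 1 and the floxed library being the closest across the gap. Rtp4, a Golgi chaperone, and Cmpk2, a mitochondrial nucleotide kinase, had null replicate 1 inside the Gr-CD11b+ range. Without the block the differences were 0.89 ± 0.28, 1.03 ± 0.57 and 0.93 ± 0.46 (adjusted p = 0.0562, 0.28 and 0.223), and with it 1.05 ± 0.20, 1.66 ± 0.31 and 1.32 ± 0.30 (adjusted p = 0.011, 0.011 and 0.0225).

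Levels of Ifi35 were 33.9, 43.2, 85.9 and 98.4 FPKM in Gr+CD11b+ and 34.1, 54.4, 86.0, 50.7 and 45.0 FPKM in Gr-CD11b+ libraries. For Ifi35, both CD19Cre libraries and CEBPaCre Gr+CD11b+ were high, and the difference was 0.20 ± 0.36 (adjusted p = 0.772), turning to -0.038 without CD19Cre Gr+CD11b+. The neighbours Parp9, Parp14 and Dtx3l on chromosome 16, of which Parp9 and Dtx3l encode partners in a ubiquitin ligase complex, had differences of 0.29 ± 0.28, 0.53 ± 0.33 and 0.11 ± 0.27 (adjusted p = 0.572, 0.353 and 0.838). Dtx3l had -0.0057 ± 0.18 with the block and was the 1 member below 0 in that fit. Rsad2, or viperin, a neighbour of Cmpk2 on chromosome 12, ranged from 2.67 to 16.7 FPKM in Gr+CD11b+ and from 1.81 to 4.86 FPKM in Gr-CD11b+, a difference of 0.90 ± 0.42 (adjusted p = 0.194). Samd9l, which restricts poxviruses and acts on myeloid growth, ranged from 7.98 to 33.6 FPKM and from 6.02 to 19.2 FPKM, a difference of 0.91 ± 0.43 (adjusted p = 0.205). Ifi44, which was too low to test, was listed at 0 in null Gr+CD11b+ replicate 1 and reached 2.30 FPKM in CEBPaCre Gr+CD11b+, its highest library.

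The null Gr+CD11b+ libraries share genotype, subset and age in the labels, and the members differed between them. Replicate 2 lay at least 2-fold above replicate 1, on the FPKM + 1 scale, for 14 of 35 members (1.59% of all genes), and for no member was replicate 1 at least 2-fold above replicate 2 (2.36% of all genes). Replicate 2 was the higher for 33 of 35 members (30.7% of all genes), all but Ifitm1 and Ifitm3. The median member difference was 0.87 on the log2 scale, against -0.16 over all genes. The largest ratios were 3.05 for Oas3, 2.86 for Ifit2 and 2.59 for Isg15. The smallest change among members was in Irf9, with a ratio of 1.05, and Ifitm1 had 0.600. With 1 library against 1, these are values with no test.

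**Figure D4:**
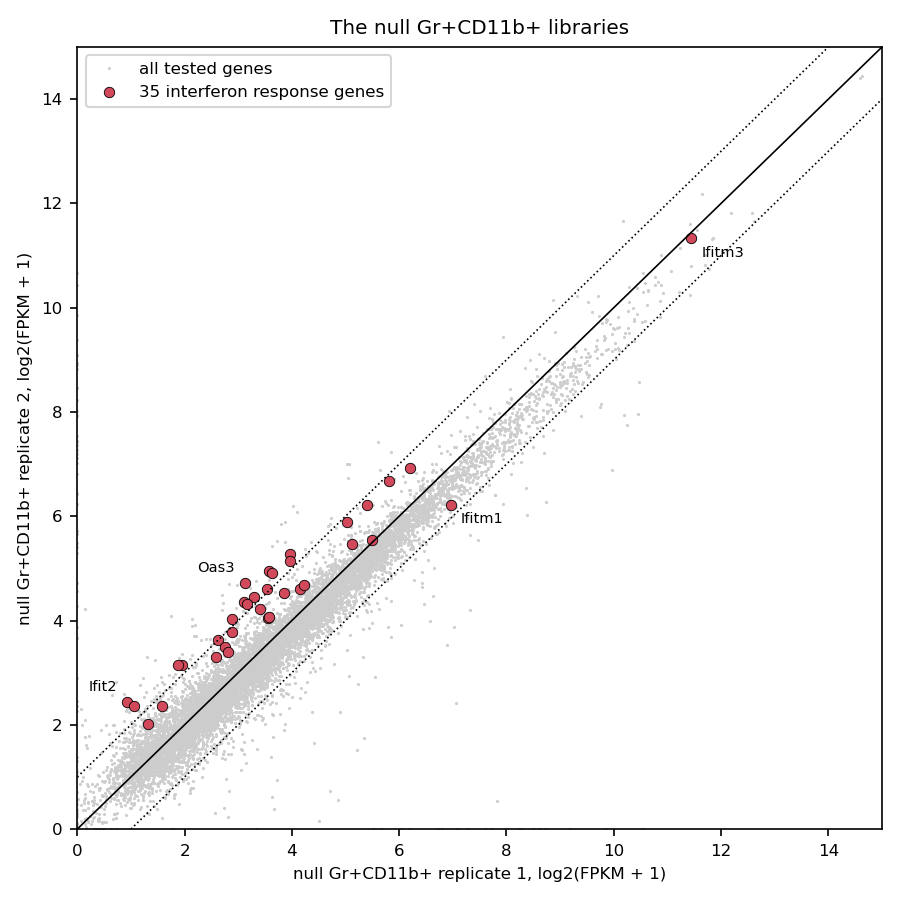
Level in null Gr+CD11b+ replicate 1 (horizontal axis) and replicate 2 (vertical axis), as log2(FPKM + 1); red points are the 35 members and grey points all genes tested. The solid line marks equal values and the dotted lines a 2-fold difference; 14 members lie on or above the upper dotted line and none on or below the lower one.

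Other lists moved between these libraries as well. The median neutrophil marker was 1.24 lower in replicate 2 on the log2 scale, and the median platelet marker was 1.09 higher. The relative depth was 0.702 in replicate 1 and 0.993 in replicate 2, and 9482 and 5693 genes were listed at 0. Their part in the members' difference was not tested. In replicate 1, 30 of 35 members were at the lowest of the 4 Gr+CD11b+ libraries (18.3% of all genes). The subset difference inside null therefore depended on which replicate was used, and both share 1 null Gr-CD11b+ library. At least 2-fold higher in Gr+CD11b+ were 11 of 35 members with replicate 1 (9.98% of all genes) and 26 with replicate 2 (7.17% of all genes). The median member differences were 0.71 and 1.41 on the log2 scale, against 0.18 and 0.02 over all genes. Oasl2 had a fold of 4.39 with replicate 1 and 10.8 with replicate 2. Rsad2 had 1.00 and 2.42.

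In the other genotypes with both subsets, the subset difference was in the same direction. In CEBPaCre, 23 of 35 members were at least 2-fold higher in Gr+CD11b+ (7.88% of all genes), with a median difference of 1.46 against 0.05 over all genes. In CD19Cre, 12 of 35 were (7.13% of all genes), with a median of 0.72 against 0.05. The difference was above 0 in null replicate 1, CEBPaCre and CD19Cre alike for 31 of 35 members (36.7% of all genes); the 4 others were Ifih1, Ifi35, Zbp1 and Dtx3l. Oasl2 was 6.02-fold higher in CEBPaCre and 5.16-fold in CD19Cre. Ifit1 and Ifit2 had folds of 5.73 and 5.82 in CEBPaCre and 4.75 and 5.57 in CD19Cre. Oasl1 and Rsad2 had folds of 5.02 and 4.05 in CEBPaCre and 1.44 and 1.43 in CD19Cre. Each is 1 library against 1, and the difference between genotypes was not tested.

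By genotype within Gr+CD11b+, CEBPaCre was the highest of the 4 libraries for 28 of 35 members (26.5% of all genes). It lay above CD19Cre for 29 of 35 (48.3% of all genes), by at least 2-fold for 19 (9.03% of all genes), with a median difference of 1.06 against -0.02 over all genes. The members split by name. Oasl1 was 7.84-fold, Oas3 4.85-fold, Ifit3 4.43-fold and Mx1 4.03-fold higher in CEBPaCre. Irf9, Ifi35, Gbp2, Gbp3, Samd9l and Eif2ak2 were higher in CD19Cre, with CEBPaCre to CD19Cre ratios of 0.652 (Gbp2) to 0.968 (Samd9l). Against the mean of the null libraries, CEBPaCre was 8.46-fold higher for Ifit3 and 1.03-fold for Ifitm1, the members at the ends of that range.

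**Figure D5:**
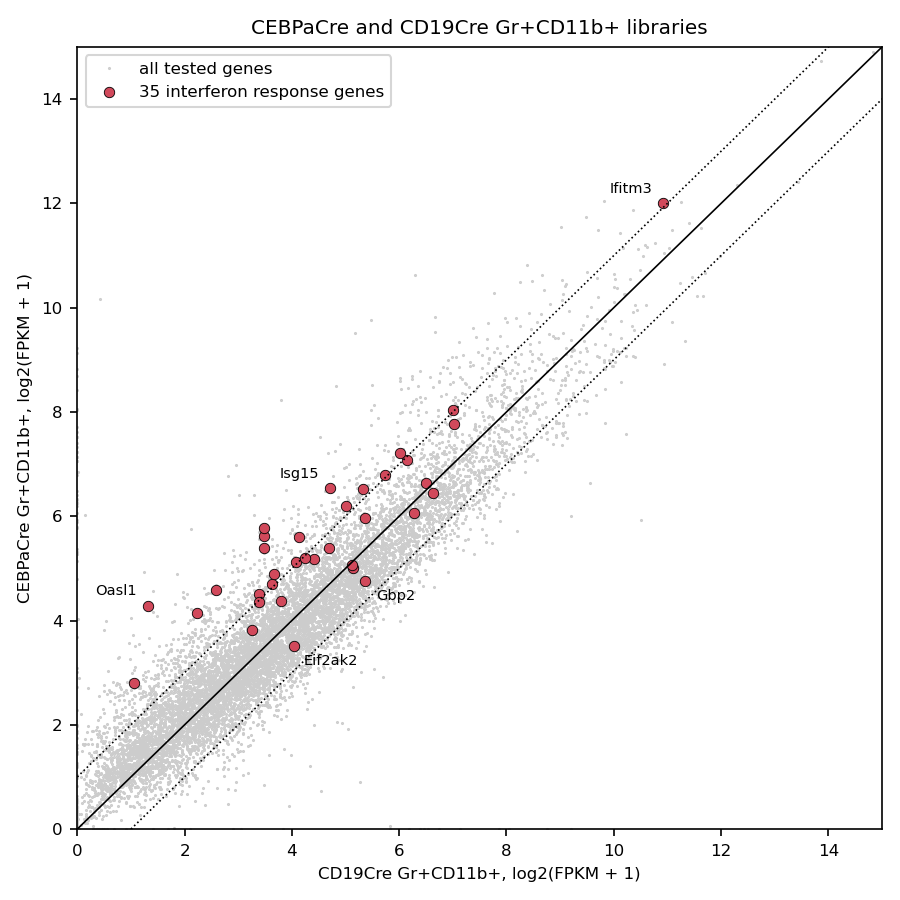
Level in CD19Cre Gr+CD11b+ (horizontal axis) and CEBPaCre Gr+CD11b+ (vertical axis), as log2(FPKM + 1); red points are the 35 members and grey points all genes tested, with lines for equal values and for a 2-fold difference. There are 29 members above the line of equal values, Oasl1 farthest from it, and Gbp2 and Eif2ak2 are farthest below.

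Within Gr-CD11b+, the null library was the lowest of the 5 for 27 of 35 members (18.9% of all genes). The other 4 libraries lay above it by a median member difference of 1.11 in CEBPaCre, 1.01 in CD11cCre, 0.81 in floxed and 0.75 in CD19Cre. Over all genes these medians were 0.23, 0.21, -0.13 and 0.31. CEBPaCre was above CD11cCre, and CD19Cre and floxed lay 0.01 apart in the member mean. With 1 library each, these differences cannot be set against a replicate spread. The null Gr+CD11b+ pair, the 1 pair of replicates, differed by 0.84 in the member mean.

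The genotypes were then pooled by what the label removes in myeloid cells, null and CEBPaCre (5 libraries) against CD19Cre and floxed (3 libraries), with the subset as covariate. No member and none of the 10429 genes tested was called by limma (0%). At an unadjusted p under 0.05 there were 2 members, Gbp2 and Gbp3 (14.1% of all genes). Gbp2 averaged 15.7 ± 7.92 FPKM (SD, n = 5) with a deleting label and 32.6 ± 6.93 FPKM (SD, n = 3) without one, a log2 difference of -1.29 at equal subset (limma adjusted p = 0.306). Gbp3 averaged 15.0 ± 11.8 FPKM (SD, n = 5) with a deleting label and 18.1 ± 14.2 FPKM (SD, n = 3) without one, a log2 difference of -0.90 at equal subset (limma adjusted p = 0.344). CD19Cre was the highest of its subset for both genes, and the floxed library came next among Gr-CD11b+ libraries. The median member difference was -0.15, against -0.03 over all genes, and 15 members were higher and 20 lower in the deleted libraries. Without the floxed library, CD19Cre alone was left as the intact group. Then 2551 of all genes tested were called, and 1 of the 35 members, Gbp2 (log2 difference -1.32, limma adjusted p = 0.0477).

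The genes upstream of this response are read against the shares of all genes called, 8.84% higher and 5.95% lower without the block and 16% and 9.97% with it. Of 17 interferon ligand genes in the files none reached a mean of 1 FPKM, 5 were listed at 0 in every library, and their sum did not exceed 2.56 FPKM in any library. Of 14 receptor, kinase and transcription factor genes none was called without the block, and 2 were called higher and 1 lower with it. Ifnar2, a receptor chain, averaged 88.1 ± 12.9 (SD, n = 4) in Gr+CD11b+ and 121 ± 14.3 (SD, n = 5) in Gr-CD11b+ FPKM and differed by -0.46 ± 0.19 (adjusted p = 0.132). Irf8, a monocyte transcription factor, differed by 0.70 ± 0.34 (adjusted p = 0.217) and was called higher in Gr+CD11b+ with the block (adjusted p = 0.00553). Stat3 was called lower with the block, at -0.49 (adjusted p = 0.038). Of 20 tested sensor and adaptor genes, 1 was called higher in Gr+CD11b+: Tmem173, which encodes STING, averaged 67.6 ± 24.7 (SD, n = 4) in Gr+CD11b+ and 19.5 ± 5.50 (SD, n = 5) in Gr-CD11b+ FPKM, a log2 difference of 1.71 ± 0.28 (adjusted p = 0.00184). With the block, 5 were called higher and 2 lower. Of 14 tested negative regulators, Ptpn11, a phosphatase, was called lower at -0.76 ± 0.22 (adjusted p = 0.0395). With the block it was not called (adjusted p = 0.0877), and Tnfaip3, which encodes the ubiquitin-editing protein A20, was called lower (adjusted p = 0.0296). Socs1 had -0.87 ± 0.40 (adjusted p = 0.194).

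Other interferon-induced genes were also called higher in Gr+CD11b+. Of 60 tested, 16 were called higher and 0 lower without the block, where the members had 3 of 35 and all genes 8.84%. With the block, 27 of 60 were called higher and 0 lower, where the members had 23 of 35 and all genes 16%. The median differences were 0.57 and 0.66, below the members' 0.89 and 1.05. Slfn1, a Schlafen family gene, averaged 107 ± 38.3 (SD, n = 4) in Gr+CD11b+ and 13.001 ± 4.70 (SD, n = 5) in Gr-CD11b+ FPKM (log2 difference 2.97 ± 0.36, adjusted p = 0.000235). Lgals9, which encodes galectin 9, averaged 111 ± 38.1 (SD, n = 4) in Gr+CD11b+ and 17.6 ± 6.95 (SD, n = 5) in Gr-CD11b+ FPKM (log2 difference 2.62 ± 0.34, adjusted p = 0.000406). CEBPaCre was the highest Gr+CD11b+ library for 48 of these 60 genes (26.5% of all genes). The interferon gamma induced GTPases and chemokines had 1 of 12 called higher (Gbp7, 1.28 ± 0.31, adjusted p = 0.0163) and 1 lower (Gbp8, -1.05 ± 0.21, adjusted p = 0.0057). Of 18 class I presentation genes, 3 were called lower in Gr+CD11b+ and none higher without the block (5.95% of all genes were called lower). H2-K1 averaged 540.0 ± 94.3 (SD, n = 4) in Gr+CD11b+ and 1252 ± 314 (SD, n = 5) in Gr-CD11b+ FPKM (log2 difference -1.18 ± 0.26, adjusted p = 0.011), and H2-D1 and H2-Q4 were the others. With the block H2-K1 and H2-Q4 were called and H2-D1 was not (adjusted p = 0.0673), and the list's median difference turned from -0.078 to 0.12. Plasmacytoid dendritic cells are known for making interferon alpha. Their markers summed to 10.3 to 13.3 FPKM in Gr+CD11b+ and 19.6 to 63.4 FPKM in Gr-CD11b+ libraries, but the markers split. Of 5 tested, Tcf4 was called higher in Gr+CD11b+ (log2 difference 0.64 ± 0.18, limma adjusted p = 0.0327), and also with the block (adjusted p = 0.0276). Ly6d, Spib and Runx2 were called lower, of which Spib and Runx2 also with the block. Cox6a2 was not called, and its 26.4 FPKM in the CD11cCre library entered the highest sum. Siglech did not exceed 1.15 FPKM in any library.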

How the data were processed

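RNA from sorted cells was taken with Trizol and amplified with the SMART-Seq v4 kit, per the labels' protocols. The deposited values are FPKM per gene symbol, 1 table for each of the 9 libraries; TopHat2 2.0.8, Cufflinks 2.1.1 and the mm9 build are named in the submitters' processing notes, and the annotation and settings are not given in the sources used here. The depth in reads is unknown, so no counting interval is given, and a listed 0 can be a failed estimate. Cufflinks splits reads among similar genes, which leaves paralogs such as Oas1a and Oas1g, and overlapping neighbours such as Parp9 and Dtx3l, uncertain.

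The log2(FPKM + 1) values of genes that averaged 1 FPKM or more and were above 0 in 2 or more fitted libraries went into limma 3.58.1 under R 4.3.3 (lmFit, eBayes with a trend). Calls needed an adjusted p (Benjamini-Hochberg, over all genes tested) of 0.05 or less. A pseudocount of 1 understates folds of low genes. The script was tested on simulated data. The subset fit had no covariate; the deletion fit had the subset. Single libraries were compared as values, past 2-fold on the FPKM + 1 scale.

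Genotype as a block was an alternative to the subset fit. Across genes, the deviations of same-genotype Gr+CD11b+ and Gr-CD11b+ libraries from their subset means correlated at 0.16 to 0.59 in 4 pairs, and those of different genotypes at -0.38 to 0.25 in 16 pairs. The 2 ranges overlapped: null Gr+CD11b+ replicate 2 had 0.25 with the floxed library and 0.16 with the null Gr-CD11b+ library. Deviations from a subset mean sum to 0, which ties the pairs to each other, and both null replicates were paired with the same Gr-CD11b+ library. The pairing comes from the shared genotype in the labels, not from a stated shared animal; genes are not independent replicates.

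Other alternatives were pseudocounts of 0.1 and 5, other filters, median ratio and quantile scaling, library weights (statmod 1.5.0), no trend, and leaving out libraries. Alternatives to the blocked fit were chosen after seeing the data. The members and lists were chosen with earlier results of these data known. Values in every library are given for members called in either subset fit and for those with the highest mean, the smallest p or the largest difference inside the null pair; other lists name the genes with the smallest p. Stat3 and Tnfaip3 were named after their values were seen. No value column was left out. Promoter windows are RefSeq's.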

Additional observations from a re-analysis of the deposited data

Results flagged for a closer look

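In 4 members the null Gr-CD11b+ library lay far below the other 4 Gr-CD11b+ libraries. Stat2 held 5.93 FPKM there, against 11.9 to 14.3 FPKM in the others. Bst2 held 25.9 FPKM, against 48.0 to 60.6 FPKM. Zbp1 held 69.1 FPKM, against 127.6 to 158 FPKM. Gbp3 held 2.59 FPKM, against 7.24 to 10.5 FPKM. The gap to the nearest library, as a share of the range, was screened in 72 groups of 4 or 5 libraries, and chance alone marks about 1 in 20 such groups.

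Zbp1 was also marked because its subset difference fell just below 0 in CD19Cre and above 0 in null. Gr+CD11b+ minus Gr-CD11b+ was -0.0028 on the log2(FPKM + 1) scale in CD19Cre, where both libraries held 129 FPKM, so the subsets hardly differed. It was 0.07 and 0.80 in null with replicates 1 and 2, and 0.45 in CEBPaCre. The difference between genotypes was not tested.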

How the results depend on the processing

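The 3 members called higher in Gr+CD11b+ became 1 with no filter on the mean, 5 with library weights and 23 with genotype as a block, and 0 to 10 when single libraries were left out. Of all genes, 8.84% were called higher, 4.83% with no filter, 13% with weights, 16% with the block, and 6.02% to 9.73% without single libraries. The block count of 23 ran from 5 to 29 when single libraries were left out (6.13% to 16.2% of all genes). In the deletion comparison 0 members were called (0% of all genes), with 0 to 1 when single libraries were left out. Without the floxed library it was 1, Gbp2, in a fit that called many other genes, as counted above. A pseudocount of 5 took the members at least 2-fold apart inside the null pair from 14 to 5. Members at least 2-fold higher in Gr+CD11b+ went from 11 to 6 in null replicate 1, from 26 to 15 in null replicate 2 and from 12 to 7 in CD19Cre. A larger pseudocount shrinks the folds of all genes, and the shares of all genes at 5 are not given here. In the subset fit at that pseudocount, the median difference was 0.62 over the members and 0.06 over all genes. The sign turned in 4 members that were not called. Zbp1 had -0.058 with median ratio scaling, -0.089 with quantile normalization, -0.060 with library weights, and -0.22 to 0.30 without single libraries. Dtx3l had -0.028 with weights, -0.0057 with the block and -0.091 to 0.27 without single libraries. Ifi35 had -0.038 to 0.46 and Gbp2 -0.11 to 0.59 without single libraries. The cause was not tested. The median member difference was above 0 in the subset comparison under every alternative run. In null, Gr+CD11b+ replicate 1 and the Gr-CD11b+ library share the number 1 in their titles, and whether they share an animal is not stated. The fit with the block and without null Gr+CD11b+ replicate 2 pairs null by that number. It called 21 of 35 members (15.1% of all genes), with a median member difference of 0.98.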
